A study of Homo sapiens with 18 samples.

Results

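The cytosolic ribosomal protein genes encode the proteins of the 2 ribosomal subunits that translate nuclear-encoded mRNA. They were taken from the ATAC-seq count table by their symbols: RPL or RPS followed by a number, with an optional A, X or L at the end, together with RPLP0, RPLP1, RPLP2 and RPSA, and without rows described as pseudogenes. This gave 81 of 54425 gene rows, 49 of the large subunit and 32 of the small subunit. ATAC-seq counts DNA fragments cut by a transposase, which inserts mainly where chromatin is open. All 18 libraries came from HEK293T cells, a human embryonic kidney line, that carried fusion genes of the t(4;11) leukemia translocation, which joins MLL (KMT2A) and AF4 (AFF1). MLL-AF4 cells carried MLL-AF4 and AF4-MLL cells carried AF4-MLL, each in an inducible pSBTet vector. Co-expression cells carried constitutive MLL-AF4 from a pSBbi vector together with inducible AF4-MLL. Doxycycline at 1 µg/ml was given for 48 h in all settings, and each of the 3 settings was sampled on day 3 and on day 28 with 3 libraries. Induction ended at the early sampling, so by the late one the inducible fusion genes had been switched off for 25 days, while MLL-AF4 in co-expression cells stayed on. The AF4-MLL vector of the co-expression cells was transfected transiently into cells that already carried MLL-AF4, so these cells differ from MLL-AF4 cells in the vector and the timing of MLL-AF4 as well as in AF4-MLL. Mock cells were not analysed here, so settings and days were compared with each other.

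Ribosomal protein genes are used by every growing cell. Their promoters are compact, lie in open chromatin and usually start transcription inside a short run of pyrimidines. The resulting terminal oligopyrimidine tract at the 5′ end of the mRNA lets the mTOR pathway adjust the translation of all of them together. A few have paralogues. Of these, RPL3L (heart and skeletal muscle) and RPL10L and RPL39L (mainly testis) have a narrower use, while RPS27L is a gene that p53 activates.

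Promoter sequence was described first, because it is what the members share beyond their names. The RefSeq table (GRCh38.p14) listed promoters for 64 of the 81 members, 10 of them with more than 1 start, and for 27305 genes in all. The other 17 members had no entry, RPL37, RPL39L and RPL3L among them. An oligopyrimidine start, meaning at least 5 C or T in a row that begin within 5 bases of a listed start on the sense strand, was found in 56 of 64 members (87.5%, exact 95% interval 76.9 to 94.5) and in 34.9% of all genes. The letters CCGGAAG, which ETS factors bind, occurred on either strand within the listed window around the start in 35.9% of members and 12.2% of all genes. A YY1 motif (AAGATGG) was present in 12.5% of members and 7.11% of all genes. TATAAA occurred in 9.38% of members against 14.0% of all, and the GC box GGGCGG in 59.4% against 48.3%. In a shorter window, from 100 bases before to 50 after the start, the order for TATAAA turned, with 9.38% of members and 7.42% of all genes. Intervals of these shares cover counting error only, and a match is a description of the letters, not of binding.

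Promoters of 7 members whose counts are followed in detail are shown from 100 bases before to 20 bases after the start, 5′ to 3′ on the gene's strand, with the oligopyrimidine start, CCGGAAG and GGGCGG (also as their reverse complements) in capitals. They are the 6 called genes with the largest log2 fold changes in either direction between 2 groups, and RPS27 as the parent of RPS27L. RPS27L lies at chr15:63157458-63157577 (minus strand), its parent RPS27 at chr1:153990662-153990781 (plus), RPS19 at chr19:41860155-41860274 (plus), RPL39 at chrX:119791611-119791730 (minus), RPL32 at chr3:12841546-12841665 (minus), RPL41 at chr12:56116533-56116652 (plus) and RPS7 at chr2:3575160-3575279 (plus).
RPS27L: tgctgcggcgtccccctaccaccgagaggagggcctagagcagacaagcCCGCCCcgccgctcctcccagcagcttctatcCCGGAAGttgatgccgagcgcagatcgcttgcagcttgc
RPS27: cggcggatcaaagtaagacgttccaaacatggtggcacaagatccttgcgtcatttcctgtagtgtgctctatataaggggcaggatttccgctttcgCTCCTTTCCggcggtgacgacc
RPS19: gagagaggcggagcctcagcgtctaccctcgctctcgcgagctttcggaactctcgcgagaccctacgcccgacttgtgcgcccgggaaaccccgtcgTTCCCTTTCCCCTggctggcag
RPL39: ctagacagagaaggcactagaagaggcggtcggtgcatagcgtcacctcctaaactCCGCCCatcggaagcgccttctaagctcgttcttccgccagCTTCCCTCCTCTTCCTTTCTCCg
RPL32: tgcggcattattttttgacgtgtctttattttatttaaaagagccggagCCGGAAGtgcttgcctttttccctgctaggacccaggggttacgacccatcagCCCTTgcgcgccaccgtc
RPL41: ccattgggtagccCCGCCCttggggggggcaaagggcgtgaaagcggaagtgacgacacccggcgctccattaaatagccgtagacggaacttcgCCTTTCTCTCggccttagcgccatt
RPS7: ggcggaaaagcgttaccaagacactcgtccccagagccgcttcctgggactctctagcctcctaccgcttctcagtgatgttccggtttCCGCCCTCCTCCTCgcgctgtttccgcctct
RPS27 holds the oligopyrimidine start and none of the other letters in capitals, whereas its paralogue RPS27L holds CCGGAAG and a GC box without an oligopyrimidine start. RPL32 holds CCGGAAG and an oligopyrimidine start. RPL32 has 3 listed starts and RPS19 has 2. For these genes the first listed start with an oligopyrimidine tract is shown, so the tract's presence there follows from that choice. In RPS7 the GC box runs into the oligopyrimidine start. Of the 64 members with an entry, 8 had no oligopyrimidine start: RPL6, RPL10L, RPL15, RPL17, RPL27, RPS15, RPS27L and RPS29.

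The libraries held from 442159 to 3539937 counts. The 37 mitochondrial genes took 32.7 to 45.6% of them on day 3 and 63.6 to 68.5% on day 28, so each comparison of days is also a comparison of libraries with different mitochondrial shares. From 297567 to 1116385 nuclear counts remained, of which 1549 to 5296 lay on the 81 members. Their median count per library ranged from 15 to 57.5. Replicates are biological replicates by their titles. Replicate libraries differed by more than counting error (chi-square per degree of freedom from 1.06 to 1.46), so none repeated the counts of another. This cannot show that they came from separate cultures. As a check of the labels, KMT2A, whose 3′ portion AF4-MLL contains, stood at 83.01 to 108.5 CPM in the AF4-MLL libraries and at 27.7 to 47.0 CPM in the MLL-AF4 libraries. The co-expression libraries, whose cells received AF4-MLL by transient transfection, lay between them, at 47.3 to 57.4 CPM on day 3 and 59.8 to 79.9 on day 28. By the paper this plasmid was lost without selection, so cells on day 28 may no longer carry it. The MLL-AF4 vector also contains MLL exons, so these counts are not specific to AF4-MLL. CPM here are counts divided by the library size in units of 1e6 after TMM scaling. Of the markers of the kidney line, HOXC10 and NEFL ranked above 90% of tested nuclear genes with a RefSeq span by counts per kb. On this scale LHX1 stood at 75.01%, and the long genes PAX2 and EYA1 at 20.7 and 7.60%. The blood genes CD3E and GATA1 had 0 to 7 counts per library, whereas SPI1 stood at 59.3%, CD34 at 46.6% and PTPRC at 12.9%.

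Per length, the ribosomal protein genes were among the most accessible of all genes (level per kb, as CPM of nuclear counts divided by the RefSeq span, mean of 18 libraries). The median member held 9.58 CPM per kb, against 4.01 for the 78 mitochondrial ribosomal protein genes, 2.27 for 39 proteasome genes, 1.45 for 1105 ribosomal protein pseudogenes and 0.677 for 348 olfactory receptor genes, which are used in sensory neurons of the nose. All 80 members that passed the filter on low counts ranked above 50% of tested nuclear genes with a RefSeq span, and 40 ranked above 90%. The highest level per kb was that of RPL41 (50.6), whose product is the smallest ribosomal protein. It was followed by RPL36 (48.3), and by RPL10 (43.5), a protein that joins the large subunit late in its assembly. At the lower end stood RPS10 (1.93), RPL3L (1.91) and RPL39L (1.24). Members are short (median span 5.02 kb), and a fixed open promoter weighs more in a short span, so the level per kb also depends on the span. The division assumes that counts came from the whole span. The sources used here do not give the counted region, so the ranking holds only under this assumption. The count of a member can also hold reads of other genes in its span: 51 members overlap another RefSeq gene, 29 of them hold 60 snoRNA genes and 17 overlap another protein-coding gene.

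**Figure D1:**
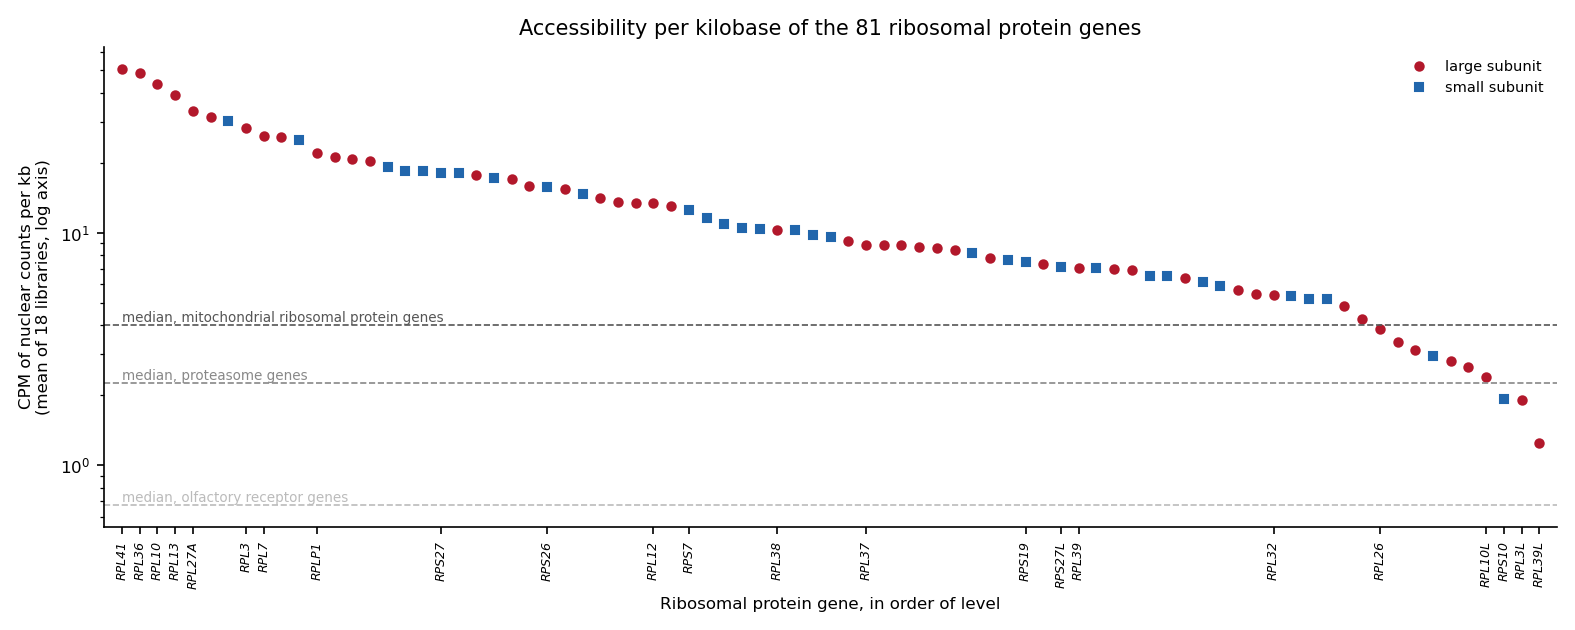
Level of each of the 81 ribosomal protein genes in CPM of nuclear counts per kb of gene span (log axis, mean of 18 libraries), in descending order, with large and small subunit genes marked, the genes described in the text named on the axis and the medians of 3 comparison lists as dashed lines. RPL41 leads with 50.6, and the paralogues RPL3L (1.91) and RPL39L (1.24) stand last, both above the olfactory receptor median of 0.677.

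The tissue-restricted paralogues held less per kb than their parents. RPL3, a core protein of the large subunit, held 28.0 CPM per kb and RPL3L 1.91. RPL39, which lines the exit tunnel of the ribosome, held 7.07 and RPL39L 1.24. Without division by the span the latter pair stood closer, at 36.2 CPM of nuclear counts for RPL39 and 23.1 for RPL39L, whose span is 18.6 kb against 5.13 kb. RPL10L, an intronless copy of RPL10, had 0 to 4 counts per library and 20 in all, and was the only member that did not pass the filter. RPS27L was different: at 7.13 CPM per kb it ranked above 86.5% of tested nuclear genes with a RefSeq span. Its parent RPS27, a protein of the small subunit, held 18.1. By CPM of nuclear counts alone the order turned, with 65.8 for RPS27L and 25.2 for RPS27, whose span is only 1.39 kb.

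Taken over all 81 members, the share of nuclear counts was highest in co-expression cells on day 3 and lower on day 28 than on day 3 in every setting. The lowest share was that of AF4-MLL cells on day 28, with 0.437, 0.409 and 0.438% in its 3 libraries (0.428 ± 0.0163, SD, n = 3). MLL-AF4 cells on day 28 followed with 0.458, 0.466 and 0.464% (0.463 ± 0.0043), and co-expression cells on day 28 with 0.474, 0.480 and 0.505% (0.486 ± 0.0159). No library of these 3 groups reached any library of day 3. On day 3 the MLL-AF4 libraries held 0.533, 0.546 and 0.545% (0.541 ± 0.0072). AF4-MLL cells held 0.561, 0.521 and 0.553% (0.545 ± 0.0214), which overlaps the MLL-AF4 values and does not differ from them beyond the spread. Co-expression cells on day 3 held 0.658, 0.693 and 0.655% (0.669 ± 0.0210), all above every other library, at 1.23 times the mean of MLL-AF4 cells and 1.23 times that of AF4-MLL cells. Over time the share went down by a factor of 0.786 for AF4-MLL, 0.855 for MLL-AF4 and 0.728 for co-expression. These are log2 ratios of -0.35, -0.23 and -0.46 per nuclear count, which became -0.13, -0.05 and -0.24 per TMM-scaled library size. A share over the members is a description here and carries no p-value.

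Other lists had some of the same order. The nuclear genes of the mitochondrial ribosome took 0.395 ± 0.0211% in co-expression libraries on day 3, 0.352 ± 0.0093% with MLL-AF4 alone and 0.366 ± 0.0120% with AF4-MLL alone, and 0.308 to 0.330% on day 28. Proteasome genes went from 0.158 to 0.186% on day 3 to between 0.139 and 0.150% on day 28. The 19 translation factor genes and the 32 ribosome assembly and RNA polymerase I genes were also highest in co-expression cells on day 3, at 0.220 ± 0.0078 and 0.217 ± 0.0139%. Olfactory receptor genes ran the other way, with 0.0783 ± 0.0027% in co-expression cells on day 3 and 0.0924 to 0.109% on day 28. Ribosomal protein pseudogenes stayed between 0.136 and 0.154% in the means of all groups.

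**Figure D2:**
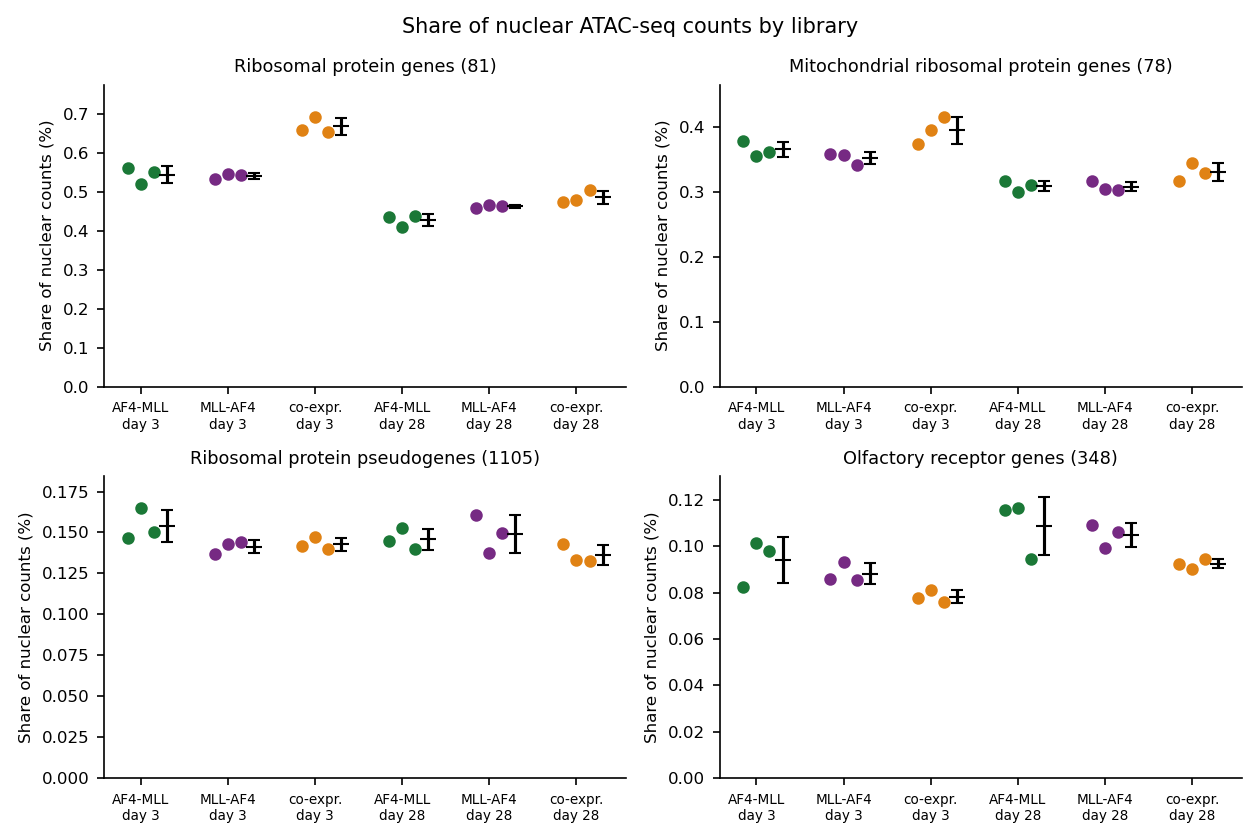
Share of nuclear counts (%) that fell on the ribosomal protein genes and on 3 comparison lists, by group. Points are libraries, the bar beside them is the mean with SD (n = 3). For the ribosomal protein genes, the co-expression libraries of day 3 (0.655 to 0.693%) lie above all others and the day 28 libraries (0.409 to 0.505%) below all others, while the pseudogenes stay between 0.132 and 0.165%.

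Differences of single genes were tested with edgeR's quasi-likelihood F test over all 17660 tested genes, with 80 members among them, and a gene was called at a Benjamini-Hochberg adjusted p under 0.05. Log2 fold changes in this fit are relative to a median of all genes between -0.01 and 0.01 in every comparison. Over 12 comparisons, 17 calls were made in 12 different members. The test compares bulk nuclei, so a change in all cells and a change in some of the cells cannot be told apart.

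Co-expression cells were compared with MLL-AF4 cells on day 3, the settings with and without AF4-MLL beside MLL-AF4, although the vector and timing of MLL-AF4 differ as well and cannot be told apart from it. Of 80 members 67 were higher in co-expression cells, with a median log2 fold change of 0.30 (all genes 0.00). Called were 5, all higher, and 1.81% of all tested genes were called. At an unadjusted p under 0.05 there were 22 members, all higher, beside 14.5% of all genes. The median was 0.36 for the 48 large subunit members and 0.21 for the 32 small subunit members. For comparison, proteasome genes had a median of 0.28 (0 of 35 called by edgeR, 7 of 35 at the unadjusted threshold), mitochondrial ribosomal protein genes 0.11 (1 of 74 called) and protein-coding non-members of 2 to 5 kb 0.10. The log2 fold changes of the called members ran from 0.52 for RPL13 to 1.27 for RPL39.

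RPS27L had the smallest p of all members and was called in 4 comparisons. Its normalised read counts on day 3 were 47.3, 53.0 and 42.4 CPM in co-expression cells, 24.6, 20.3 and 23.1 with MLL-AF4 alone and 31.2, 14.5 and 29.3 with AF4-MLL alone. On day 28 they were 43.7, 44.8 and 31.9 in co-expression cells, 28.0, 18.97 and 20.6 with MLL-AF4 alone and 27.4, 26.5 and 27.2 with AF4-MLL alone. On both days every co-expression library lay above every library of the single fusions, which overlapped each other. The value of 14.5 rests on 10 counts in the library with the lowest depth. The log2 fold change against MLL-AF4 cells was 1.06 ± 0.21 (SE, adjusted p = 0.000699) on day 3 and 0.92 ± 0.19 (adjusted p = 0.00133) on day 28. Against AF4-MLL cells it was 0.79 ± 0.18 (adjusted p = 0.00552) on day 3 and 0.63 ± 0.17 (adjusted p = 0.0307) on day 28. Between day 28 and day 3 the log2 differences of RPS27L were -0.02 ± 0.20 for AF4-MLL, -0.04 ± 0.25 for MLL-AF4 and -0.18 ± 0.16 for co-expression, none of them called. Its parent RPS27, with 3 to 31 counts per library, showed -0.09 ± 0.31 and 0.39 ± 0.30 for co-expression against MLL-AF4 and AF4-MLL cells on day 3.

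The genes around RPS27L on chromosome 15 moved with it. Among its 20 nearest tested protein-coding genes, 10 on each side, 19 were higher in co-expression than in MLL-AF4 cells on day 3 (median 0.63), 20 were higher than in AF4-MLL cells on day 3 (0.49), and 19 and 20 were higher on day 28 (0.53 and 0.69). The other 449 tested coding genes of the chromosome had medians of 0.37, 0.31, 0.32 and 0.31 in these comparisons, and the 4 members on it 0.41, 0.47, 0.34 and 0.46. The part of the neighbourhood in the RPS27L values was not tested. The call against MLL-AF4 cells on day 3 held in 15 of 15 alternatives, DESeq2 among them, whereas DESeq2 did not call the other 3 (adjusted p = 0.0554 against MLL-AF4 on day 28, 0.0828 and 0.368 against AF4-MLL on day 3 and day 28). Without MLL-AF4 replicate 2 the day 28 call was lost (0.78, adjusted p = 0.0778). For AF4-MLL as the comparison, the day 3 call did not hold without AF4-MLL replicate 2 (0.64, adjusted p = 0.0636) or co-expression replicate 2 (0.72, adjusted p = 0.0503). On day 28 the latter call did not hold without AF4-MLL replicate 1, 2 or 3 (adjusted p = 0.0749, 0.133 and 0.0822) or co-expression replicate 1 or 2 (0.224 and 0.161).

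**Figure D3:**
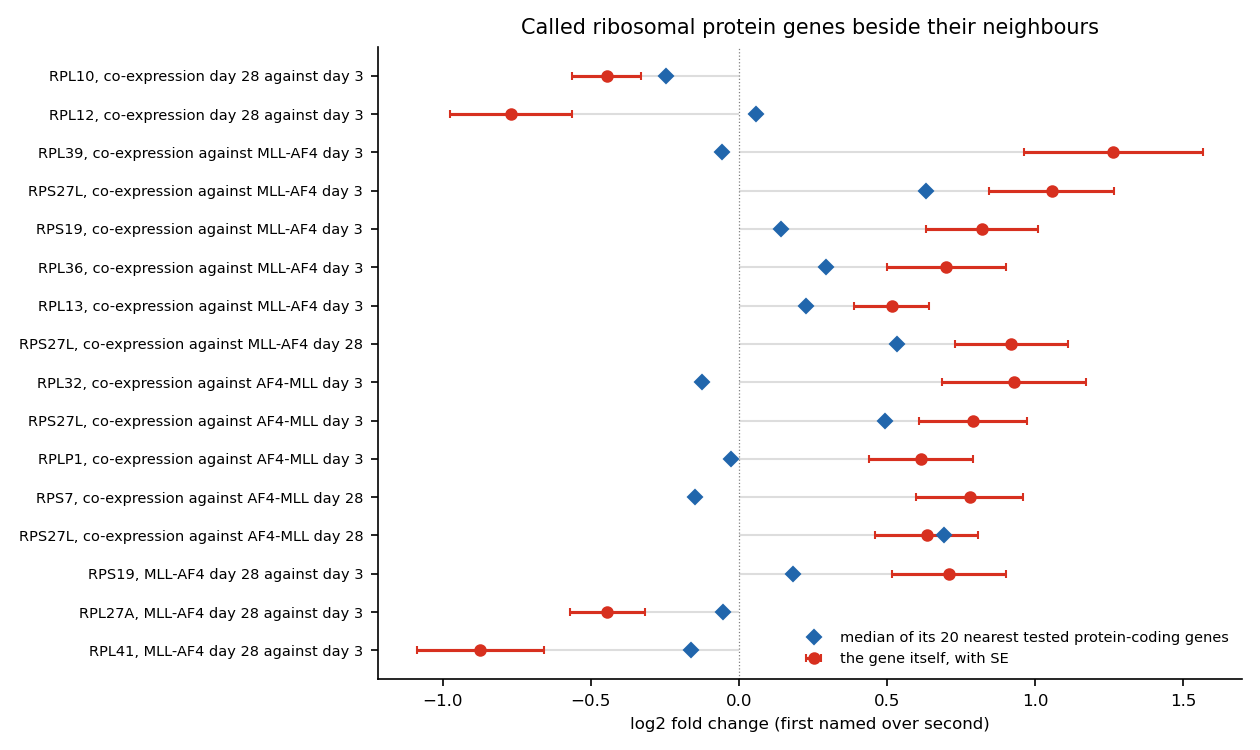
Log2 fold change of each called member with its SE (red), beside the median of its 20 nearest tested protein-coding genes (blue), for the 16 calls in comparisons of 2 groups. For RPS27L the neighbours' medians are 0.49 to 0.69, whereas for RPL39, RPL32, RPLP1 and RPS7 they are between -0.15 and -0.03 while the gene itself is at 0.61 to 1.27. For RPL36 and RPL13 they are 0.30 and 0.23, beside 0.70 and 0.52 for the genes themselves.

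RPL39 showed the largest log2 fold change among the called members. It stood at 24.7, 28.3 and 21.2 CPM in co-expression cells on day 3, at 12.3, 10.2 and 8.09 with MLL-AF4 alone and at 17.0, 17.4 and 20.8 with AF4-MLL alone. The 3 groups did not overlap, although the MLL-AF4 values rest on only 7 to 11 counts per library. The log2 fold change of co-expression against MLL-AF4 cells was 1.27 ± 0.30 (adjusted p = 0.00757), and that of AF4-MLL against MLL-AF4 cells 0.84 ± 0.33 (adjusted p = 0.359). Without MLL-AF4 replicate 3 the call was lost (1.13, adjusted p = 0.0809), as it was with DESeq2 (1.27, adjusted p = 0.0635). Its 20 neighbours on chromosome X had a median of -0.06. On day 28 the co-expression and MLL-AF4 libraries overlapped, with means of 19.7 ± 5.93 and 15.7 ± 5.11 CPM (SD, n = 3).

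RPS19, a small subunit protein needed for the maturation of the 18S rRNA and the gene most often mutated in Diamond-Blackfan anaemia, followed different courses in the settings. In MLL-AF4 cells it held 26.8, 33.0 and 34.7 CPM on day 3 and 44.5, 52.4 and 57.3 on day 28. In co-expression cells it held 51.3, 55.2 and 60.1 on day 3 and 38.6, 44.2 and 47.9 on day 28. AF4-MLL cells had 31.8, 52.1 and 47.0 on day 3 and 43.0, 39.8 and 39.8 on day 28. So all day 28 libraries lay above those of day 3 in MLL-AF4 cells and below them in co-expression cells, while the AF4-MLL libraries overlapped. RPS19 rose with time in MLL-AF4 cells by a log2 fold change of 0.71 ± 0.19 (adjusted p = 0.0178) and gave -0.39 ± 0.15 in co-expression cells (adjusted p = 0.311). The difference of these changes was -1.10 ± 0.25 (adjusted p = 0.0132), the only call among 80 members in that comparison, in which 0.232% of all genes were called. It was lost without MLL-AF4 day 28 replicate 3 (-1.04, adjusted p = 0.0599), MLL-AF4 day 3 replicate 1 (-0.99, adjusted p = 0.104) or 2 (-1.14, adjusted p = 0.0547), or co-expression day 28 replicate 1 (-0.99, adjusted p = 0.1). On day 3 the gene was higher in co-expression than in MLL-AF4 cells by 0.82 ± 0.19 (adjusted p = 0.00469, lost without MLL-AF4 replicate 1, where it was 0.71 with adjusted p = 0.0837). The rise over time in MLL-AF4 cells was lost without any of 4 libraries, day 3 replicates 1 and 2 (adjusted p = 0.174 and 0.0548) and day 28 replicates 2 and 3 (adjusted p = 0.076 and 0.083).

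RPS19 was not alone on its chromosome. All 12 members on chromosome 19 were higher on day 28 in MLL-AF4 cells (median 0.27), and so were 79.1% of the 894 other tested coding genes there (median 0.28). All 12 were also higher in co-expression than in MLL-AF4 cells on day 3 (median 0.65), where the others had a median of 0.20. The 20 neighbours of RPS19 had medians of 0.18 and 0.14 in these comparisons, and -0.29 in the difference of the changes over time. In co-expression against AF4-MLL cells on day 3 all 12 were higher as well (median 0.30), beside a median of -0.01 for the others. The part of the chromosome in the members' values was not tested. On chromosome 9 the 4 members (RPL7A, RPL12, RPL35 and RPS6) had medians of 0.41 against MLL-AF4 and 0.16 against AF4-MLL cells on day 3, where 531 other genes had -0.06 and -0.22. RPL3, the only member on chromosome 22, gave 0.38 in both comparisons, where 334 other genes had 0.13 and -0.09.

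RPL36 and RPL13, both of the large subunit, completed the calls of this comparison. RPL36 (chromosome 19, its span overlapping LONP1) stood at 51.3, 47.0 and 39.6 CPM in co-expression cells and at 24.6, 31.7 and 28.9 in MLL-AF4 cells. The log2 fold change was 0.70 ± 0.20 (adjusted p = 0.037), and the call was lost when any library other than co-expression replicate 3 was left out (adjusted p = 0.0781 to 0.206) or with DESeq2 (adjusted p = 0.156). RPL13 (chromosome 16) stood at 151.3, 145.4 and 116.1 CPM against 93.7, 101.5 and 93.6, a log2 fold change of 0.52 ± 0.13 (adjusted p = 0.00976). Its call was lost without MLL-AF4 replicate 1 or 3 (adjusted p = 0.0779 and 0.0644) or co-expression replicate 1 (adjusted p = 0.0713). In both genes all co-expression libraries lay above all MLL-AF4 libraries. The 20 neighbours had medians of 0.30 for RPL36 (16 higher) and 0.23 for RPL13 (14 higher), and their part in the values was not tested. Among those lower in co-expression cells, the smallest p was that of RPL41 (-0.25 ± 0.19, adjusted p = 0.602).

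**Figure D4:**
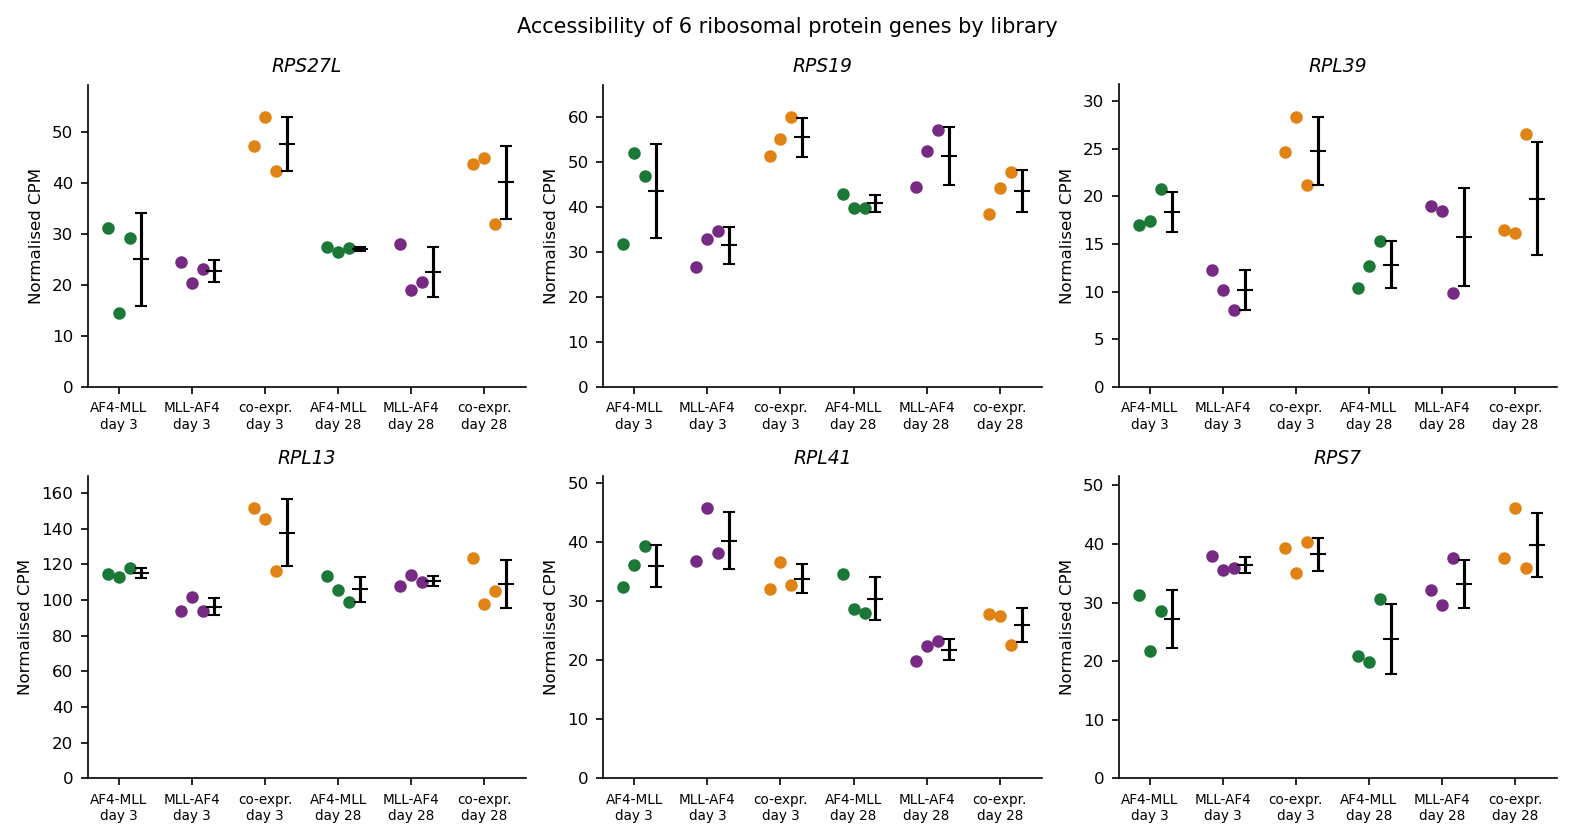
Normalised CPM of 6 called ribosomal protein genes by group. Points are libraries, the bar beside them is the mean with SD (n = 3). RPS27L is higher in co-expression libraries on both days (31.9 to 53.0 CPM) than in any single-fusion library (14.5 to 31.2), RPS19 rises over time in MLL-AF4 cells, and RPL41 falls in them from a mean of 40.2 to 21.8.

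Against AF4-MLL cells on day 3 the picture over the list was close in size, in a comparison that shares the co-expression libraries with the preceding one. Co-expression cells also came from a line selected for MLL-AF4 beforehand. KMT2A stood at a mean of 52.8 CPM in them on day 3 and at 96.55 in AF4-MLL cells. On either day the presence of MLL-AF4 cannot be told apart from such differences between the cells. Of 80 members 68 were higher in co-expression cells (median log2 fold change 0.31, all genes 0.01). Called were 3, all higher, beside 1.28% of all genes, and 25 passed the unadjusted threshold, all higher, beside 12.3% of all genes. Besides RPS27L these were RPL32 and RPLP1. RPL32, a large subunit protein whose span overlaps CAND2, stood at 24.7, 27.6 and 29.4 CPM against 11.0, 18.8 and 16.2 (0.93 ± 0.24, adjusted p = 0.0223), without overlap. RPLP1, an acidic protein of the ribosomal stalk that binds the elongation factors, stood at 48.7, 41.8 and 47.8 CPM against 29.0, 26.0 and 33.9 (0.61 ± 0.18, adjusted p = 0.0446), also without overlap. RPL32 was not called without AF4-MLL replicate 1 (0.66, adjusted p = 0.354) or 3 (adjusted p = 0.0539), or co-expression replicate 2 or 3 (adjusted p = 0.0607 and 0.124). RPLP1 lost its call without any 1 of the 6 libraries (adjusted p = 0.0514 to 0.242). DESeq2 called neither (adjusted p = 0.232 for RPL32 and 0.266 for RPLP1). Of the members that were lower, RPS26, which lies at the mRNA exit of the small subunit, had the smallest p (-0.31 ± 0.23, adjusted p = 0.634).

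Between the single fusions no ribosomal protein gene was called on day 3. In AF4-MLL against MLL-AF4 cells 38 of 80 members were higher (median -0.01) and edgeR and DESeq2 both called 0, while 0.142% of all genes were called. At the unadjusted threshold there were 8 members, 6 higher and 2 lower, beside 9.55% of all genes. RPL39 was the highest by p, as given above, and RPL37 gave -0.43 ± 0.20 (adjusted p = 0.461), with 68.5 CPM in MLL-AF4 replicate 2 and 31.2 to 37.6 CPM in the other 5 libraries.

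**Figure D5:**
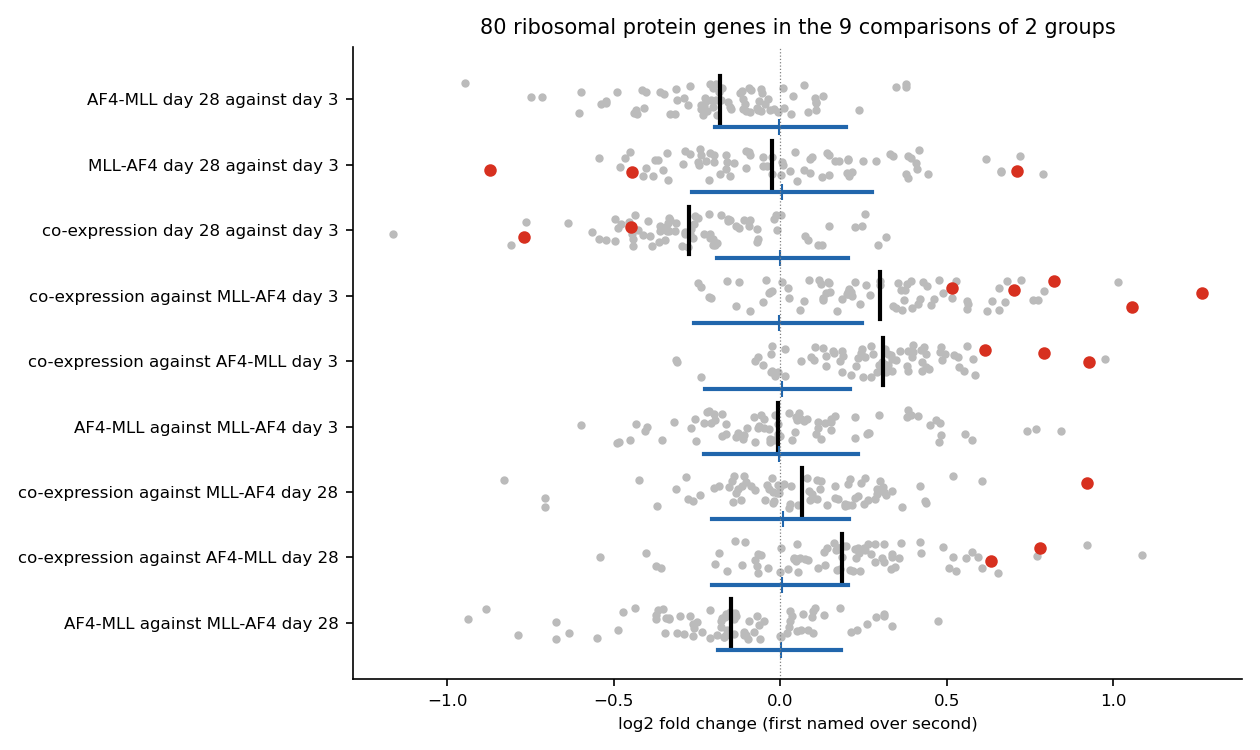
Log2 fold changes of the 80 tested ribosomal protein genes in the 9 comparisons of 2 groups (grey points, called genes in red, vertical position within a row is random). The black line is the members' median, and the blue bar spans the quartiles of all 17660 genes with their median. Members sit to the right in co-expression against either single fusion on day 3 (medians 0.30 and 0.31) and to the left for co-expression day 28 against day 3 (-0.27).

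By day 28 the members' medians for co-expression against either single fusion were smaller than on day 3. In co-expression against MLL-AF4 cells 46 of 80 members were higher (median 0.07, all genes 0.01), and RPS27L was the only call, beside 1.17% of all genes. The unadjusted threshold was passed by 6, 4 higher and 2 lower, beside 11.8% of all genes. RPL26, a protein at the exit of the peptide tunnel, had the smallest p of those lower, at 8.46, 4.98 and 10.6 CPM in co-expression and 12.4, 14.5 and 13.4 in MLL-AF4 cells (-0.83 ± 0.33, adjusted p = 0.249). Of its 20 neighbours on chromosome 17, 18 were lower as well (median -0.57). Against AF4-MLL cells 64 of 80 were higher (median 0.19, all genes 0.01), 2 were called, both higher, beside 1.69% of all genes, and 15 passed the unadjusted threshold, all higher, beside 12.7% of all genes. RPS7, a small subunit protein that can bind MDM2, was called with RPS27L. It held 37.6, 46.1 and 35.9 CPM in co-expression cells and 20.8, 19.9 and 30.7 in AF4-MLL cells, a log2 fold change of 0.78 ± 0.18 (adjusted p = 0.00548) without overlap. The call was lost without AF4-MLL replicate 2 (0.65, adjusted p = 0.101) or co-expression replicate 2 (0.66, adjusted p = 0.109), and with DESeq2 (0.77, adjusted p = 0.131). The lower member with the smallest p was again RPL26 (-0.54 ± 0.34, adjusted p = 0.533), with 18 of its 20 neighbours lower (median -0.55).

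AF4-MLL cells on day 28 had 24 of 80 members higher than MLL-AF4 cells (median -0.15, all genes 0.00), and edgeR and DESeq2 both called 0, while 0.0793% of all genes were called. The unadjusted threshold was passed by 10 members, 9 of them lower, beside 8.26% of all genes. RPL38, known for its part in the translation of Hox mRNAs in the mouse embryo, stood at 25.4, 22.7 and 20.9 CPM in AF4-MLL cells and at 34.6, 43.0 and 29.5 in MLL-AF4 cells. These libraries did not overlap, and the log2 fold change of -0.67 ± 0.19 missed the threshold (adjusted p = 0.194). RPL41 gave 0.47 ± 0.20 (adjusted p = 0.492) in the other direction.

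From day 3 to day 28 most members were lower in the co-expression setting and after AF4-MLL alone. These values depend on the scaling: with library sizes from nuclear counts alone the median of all genes shifts by -0.22 (AF4-MLL), -0.17 (MLL-AF4) and -0.22 (co-expression), whereas the members' median minus that of all genes stays between -0.34 and -0.23 in co-expression cells, between -0.25 and -0.09 in AF4-MLL cells and between -0.11 and 0.01 in MLL-AF4 cells over the alternatives other than scaling to the members themselves. In co-expression cells 69 of 80 were lower (median -0.27, all genes 0.00). Called were 2, both lower, beside 0.606% of all genes, and 22 passed the unadjusted threshold, all lower, beside 9.51% of all genes. RPL10 stood at 106.0, 120.1 and 104.5 CPM on day 3 and at 81.8, 79.1 and 81.1 on day 28, a log2 fold change of -0.45 ± 0.12 (adjusted p = 0.0339). RPL12, a protein at the base of the stalk, stood at 33.3, 36.5 and 29.4 CPM and at 23.0, 15.6 and 17.3 (-0.77 ± 0.21, adjusted p = 0.0421). Neither gene overlapped between the days, and the 20 neighbours had medians of -0.25 for RPL10, whose span overlaps DNASE1L1, and 0.06 for RPL12. RPL10 was called only with all libraries or without co-expression day 3 replicate 3, the other 5 omissions giving adjusted p = 0.0608 to 0.203. RPL12 lost its call without day 3 replicate 1 or 2 (adjusted p = 0.127 and 0.187) or day 28 replicate 2 or 3 (adjusted p = 0.317 and 0.0956). DESeq2 called neither. The highest member by p among those higher was RPL7 (0.22 ± 0.14, adjusted p = 0.648).

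AF4-MLL cells showed 65 of 80 members lower on day 28 (median -0.18, all genes 0.00), and edgeR and DESeq2 both called 0, beside 0.606% of all genes with edgeR. At the unadjusted threshold 10 members passed, 9 of them lower, beside 9.29% of all genes. RPL27A, a large subunit protein whose span overlaps TRIM66, had the smallest p of those lower, at 107.4, 102.7 and 124.1 CPM on day 3 and 78.1, 95.6 and 87.2 on day 28 (-0.36 ± 0.12, adjusted p = 0.199). RPL37 was the member with the smallest p among those higher, at 31.2, 37.6 and 32.4 CPM and then 43.0, 40.3 and 45.3 (0.38 ± 0.17, adjusted p = 0.459).

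MLL-AF4 cells showed no common direction over time. There 39 of 80 members were higher on day 28 (median -0.02, all genes 0.00), 3 were called, 1 higher and 2 lower, beside 2.87% of all genes, and 9 passed the unadjusted threshold, beside 15.8% of all genes. RPL41 fell from 36.8, 45.7 and 38.1 CPM to 19.8, 22.3 and 23.3, a log2 fold change of -0.87 ± 0.21 (adjusted p = 0.0064). RPL27A fell from 132.8, 134.5 and 124.8 CPM to 98.9, 87.0 and 105.6 (-0.44 ± 0.13, adjusted p = 0.0264), and RPS19 rose as described. The days did not overlap in either gene, and the 20 neighbours had medians of -0.16 for RPL41 and -0.05 for RPL27A. RPL41 lost its call without day 3 replicate 2 (-0.78, adjusted p = 0.0722), and RPL27A kept it only when day 28 replicate 3 was left out (adjusted p = 0.0519 to 0.207 for the other 5 libraries).

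The change over time itself was compared between settings. The change was lower in co-expression than in MLL-AF4 cells for 60 of 80 members (median difference -0.25, all genes 0.00), and 14 passed the unadjusted threshold, 13 of them lower, beside 9.73% of all genes, with RPS19 the single call. Between AF4-MLL and MLL-AF4 cells 55 of 80 differences were lower (median -0.16, all genes 0.01). Neither edgeR nor DESeq2 called a member (0), 0.317% of all genes were called, and 9 members passed the unadjusted threshold beside 9.75% of all genes. Between co-expression and AF4-MLL cells 58 of 80 were lower (median -0.09), with 0 members and 0% of all genes called by edgeR, 0 members by DESeq2, and 4 members at the unadjusted threshold beside 5.05% of all genes.

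Gene length went along with the direction of these shifts. Among protein-coding genes that are not members, those with a span of 2 to 5 kb had a median log2 fold change of -0.13 for co-expression day 28 against day 3, and those over 100 kb 0.09, while the 2 to 5 kb members had -0.26. In AF4-MLL cells the same bins gave -0.10, 0.11 and -0.19. For co-expression against MLL-AF4 cells on day 3 they gave 0.10, -0.11 and 0.40. The members did not lie further out in every bin: the 5 members under 2 kb had -0.09 in the last comparison, where 183 other genes had 0.08, and in AF4-MLL cells over time the 31 members of 5 to 10 kb had -0.09, where other genes had -0.08. The part of gene length in their values was not tested.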

How the data were processed

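ATAC-seq libraries were made with Nextera transposase from fresh nuclei of HEK293T cells. Per the labels the authors used bcl2fastq, Bowtie2 and HTSeq with GRCh38, and the deposited values are raw counts per gene. The counted region, duplicate removal and any shift of read ends are not given in the sources used here, so promoter and gene body cannot be separated.

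The 18 libraries formed 6 groups of 3 by their labels. Members and lists were chosen with earlier results of these data known. Genes passed filterByExpr (min_count 10, min_total_count 15). All 18 libraries entered 1 fit with edgeR 4.0.16 (R 4.3.3, limma 3.58.1): TMM scaling, quasi-likelihood F test, Benjamini-Hochberg adjustment over 17660 genes, threshold 0.05. CPM used TMM-scaled library sizes, and levels per kb used nuclear counts and RefSeq spans (GRCh38.p14). Depth was 442159 to 3539937 counts per library. With few counts per member, small differences cannot be seen. The edgeR step was tested on simulated data. Alternatives were other scalings and filters, DESeq2 1.42.0 (the tool of the authors), the groups compared alone, a replicate block and each library left out. The background by gene span was added after seeing the data.

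Named were members called in any of 12 comparisons, the smallest p in each direction in each of 9 comparisons of 2 groups, the 3 highest and 3 lowest levels per kb, the 4 paralogues with their parents, untested members and members on chromosomes 9, 15, 19 and 22. Values of some single genes are not reported here.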

Additional observations from a re-analysis of the deposited data

Results flagged for a closer look

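RPS19 was singled out because its change from day 3 to day 28 differed between settings. All libraries were higher on day 28 in MLL-AF4 cells (log2 fold change 0.71) and all were lower in co-expression cells (-0.39), and the difference of the changes was -1.10 (edgeR adjusted p = 0.0132). All 12 members on chromosome 19 were lower in this difference (median -0.60, 894 other coding genes there -0.26), and their part in the value of RPS19 was not tested.

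RPL37 also had all libraries on opposite sides, higher on day 28 in AF4-MLL cells (0.38) and lower in co-expression cells (-0.27). Neither change passed the threshold. Such opposite separation was sought only among the named members, and how common it is among all genes was not counted. The difference of these changes was -0.65 (edgeR adjusted p = 0.955).

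RPL10L, left out of the tests for low counts, had at most 4 counts in a library and a count of 0 in 8 of the 18 libraries.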

How the results depend on the processing

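Of 420 alternative values for named members, 337 kept direction and side of the threshold, 81 were no longer past it, 2 were newly past it (RPL27A in AF4-MLL cells over time with nuclear library sizes, RPL7 in co-expression cells over time with scaling to the members) and 0 reversed. The 420 include pairs of gene and comparison that were not called and so had no call to lose. These counted as kept unless they were newly past the threshold or reversed. All 81 losses therefore fell on alternatives of the 17 calls, which were less stable than the pooled count. Only RPS27L in co-expression against MLL-AF4 cells on day 3 was called in every alternative among the 17 calls. Of 481 values for counts, medians, shares and motifs, 417 were classed as unchanged and 64 as moved. Only medians and shares of counts were judged against the spread between replicates. Counts of called members were judged by their ratio to the original count. Motif shares were judged by the interval of the original share.

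With nuclear library sizes, 7, 5 and 27 members were called over time for AF4-MLL, for MLL-AF4 and for co-expression, with medians of -0.40, -0.20 and -0.50. With scaling to the ribosomal protein genes the medians moved towards 0 by construction: over time to -0.0327 in AF4-MLL and -0.0275 in co-expression cells, for co-expression on day 3 to 0.0219 against MLL-AF4 and 0.0235 against AF4-MLL, on day 28 to -0.0134 and 0.0044, for AF4-MLL against MLL-AF4 on day 28 to -0.0419, and for the differences of changes from MLL-AF4 cells to -0.0444 (co-expression) and -0.0551 (AF4-MLL). The calls then were 1 in co-expression cells over time, 2 and 0 against MLL-AF4 and AF4-MLL on day 3, and 1 against AF4-MLL on day 28. Without a filter the medians were 0.43 (co-expression against MLL-AF4, day 3), 0.0747 (AF4-MLL against MLL-AF4, day 3), and -0.37 and -0.24 (differences of changes), with 1 call against AF4-MLL on day 28. With a mean of at least 30 counts they were -0.10 (AF4-MLL over time) and 0.15 (co-expression against AF4-MLL, day 28). DESeq2 called 0 in co-expression cells over time, 3 and 0 against MLL-AF4 and AF4-MLL on day 3, and 0 and 0 on day 28. A fit of the compared groups alone called 0 in co-expression cells over time. The share of counts over time (log2 ratio) was -0.13 (AF4-MLL), -0.0486 (MLL-AF4) and -0.24 (co-expression) per TMM-scaled library size, and -0.20 in MLL-AF4 cells without the 5 members with most counts. In the shorter window the GC box occurred in 45.3% of members. The cause of the moves other than under scaling to the members was not tested.

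Leaving out 1 library gave 0 to 2 calls in MLL-AF4 cells over time, 0 to 2 in co-expression cells over time, 2 to 7 and 0 to 2 for co-expression against MLL-AF4 and AF4-MLL on day 3, 0 to 1 and 0 to 2 on day 28, and 0 to 1 for the difference of changes between co-expression and MLL-AF4 cells. The median against AF4-MLL on day 28 ranged from 0.17 to 0.23. Samples share only a replicate number (correlations of same-numbered samples from -0.091 to 0.037), and the fit with the replicate block gave the same counts of called members in every comparison (5 against MLL-AF4 on day 3, 3 against AF4-MLL on day 3). Depth limits what was seen: with a median of 15 to 57.5 counts per member and library, small changes of single members were not detectable.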
